A study of Mus musculus with 18 samples.

Results

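Genes for the proteins of the cytosolic ribosome were followed through all 18 libraries of a study of mouse white fat under a rotating light schedule. Members were taken by symbol: Rpl or Rps followed by a digit, or Rpsa, Rplp0, Rplp1 or Rplp2, without pseudogene symbols (-ps) and without the S6 kinase genes Rps6k. The rule found 88 members among 24091 symbols for epididymal fat and 92 among 51826 identifiers for inguinal fat, with 87 symbols in both tables and 93 in either. For epididymal fat these were 54 large-subunit symbols (Rpl, Rplp) and 34 small-subunit symbols (Rps, Rpsa). The member Rps19bp1 encodes a protein that binds RPS19 and is not a subunit. The rule does not match Fau, which encodes a ribosomal protein as a fusion with a ubiquitin-like protein and was counted with translation genes.

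All mice were C57BL/6. The control schedule alternated 12 h of light with 12 h of dark. The shiftwork schedule kept these hours for 4 days a week and swapped light and dark for the other 3, over 24 weeks. Epididymal white adipose tissue (eWAT, visceral) was taken at ZT3 and ZT12, that is 3 h and 12 h after lights-on of the regular cycle, and inguinal white adipose tissue (iWAT, subcutaneous) at ZT3. This gave 6 groups of 3 libraries: eWAT control and shiftwork at ZT3, the same at ZT12, and iWAT control and shiftwork at ZT3. Libraries held 20352008 to 72276733 assigned reads in eWAT and 28544338 to 55639501 in iWAT. All 8 adipocyte markers, among them Adipoq and Plin1, were found in both tables and none was at 0 in any library. Whether each sample is a separate mouse is not stated in the labels, so p-values measure the spread between these samples. Numbers in the sample descriptions recur between depots: 3 of the 6 iWAT libraries carry a number of an eWAT ZT12 control library and 1 that of an eWAT ZT12 shiftwork library, and none that of an eWAT ZT3 library, although iWAT is labelled ZT3. Whether equal numbers mark the same mouse is not stated, so the depots may share animals and the time of the iWAT samples rests on their titles.

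The ribosome has a small subunit that decodes mRNA and a large subunit that joins amino acids, and nearly all of their proteins are needed in equal numbers. Their mRNAs are a classic group of TOP mRNAs: transcription starts at a C followed by a run of pyrimidines, and this 5′ end lets mTOR signalling through the LARP1 protein set how much of the mRNA is translated. Most members belong to large families of processed pseudogenes, which are intronless copies with nearly the same sequence. In fat, insulin and feeding act through mTOR. A few members have paralogs restricted to muscle or male germ cells.

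Start sites are shown first because the pyrimidine run is the sequence feature this family is known for. RefSeq promoter windows (GRCm38.p6, 250 bases before the annotated start and 50 from it) were found for 68 of the 93 members. The letters CTTTCC stood on the gene's strand in 27 of 68 members (39.7%), against 16% of 27025 genes with a window. On either strand they stood in 52.9% of members and 29.3% of genes. The letters CCGGAAG, the core of a site for ETS-family factors, stood on either strand in 38.2% of members and 9.93% of genes, and TATAAA on either strand in 11.8% and 15.7%. CTTTCC and CCGGAAG can overlap by their shared CC. A match is a description of these letters in this window, and the absence of a match says only that they are not there. CTTTCC was counted anywhere in the window, so it does not mark the pyrimidine run at the start of the mRNA. In Rpl4, printed below, it lies before the annotated start. Below, 60 bases before and 30 from the start are printed 5′ to 3′ on the gene's strand, with CTTTCC in capitals. The first 4 are from genes expressed in all tissues, at chr9:64173327-64173416 (plus strand), chr14:18270957-18271046 (minus strand), chr7:4792905-4792994 (plus strand) and chr3:90213619-90213708 (minus strand).
Rpl4: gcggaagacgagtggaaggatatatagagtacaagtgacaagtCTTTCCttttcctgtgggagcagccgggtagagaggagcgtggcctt
Rpl15: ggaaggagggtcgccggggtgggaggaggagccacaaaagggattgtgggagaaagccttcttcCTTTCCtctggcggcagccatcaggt
Rpl28: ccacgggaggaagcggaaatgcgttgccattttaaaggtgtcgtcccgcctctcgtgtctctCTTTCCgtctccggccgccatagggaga
Rps27: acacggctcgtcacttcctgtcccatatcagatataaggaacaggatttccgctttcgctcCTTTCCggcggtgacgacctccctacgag
The other 3 are from paralogs known for restricted expression: Rpl3l in heart and skeletal muscle at chr17:24727766-24727855 (plus strand), and Rpl10l and Rpl39l in male germ cells at chr12:66284372-66284461 (minus strand) and chr16:10170168-10170257 (plus strand).
Rpl3l: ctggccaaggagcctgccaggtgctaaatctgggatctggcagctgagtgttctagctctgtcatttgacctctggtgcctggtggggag
Rpl10l: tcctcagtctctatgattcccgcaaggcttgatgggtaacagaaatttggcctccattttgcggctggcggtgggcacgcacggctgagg
Rpl39l: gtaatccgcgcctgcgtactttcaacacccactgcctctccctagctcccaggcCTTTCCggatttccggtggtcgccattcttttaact
CTTTCC lay in the printed stretch of Rpl4, Rpl15, Rpl28, Rps27 and Rpl39l, and not in that of Rpl3l or Rpl10l. These are chosen examples: in this stretch the letters stood on the gene's strand in 15 of 68 members (22.1%), against 4.93% of 27025 genes, so most members lacked them there.

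Levels per transcript length were very uneven for products that the ribosome needs in near-equal numbers. In eWAT, mean log2 FPKM over 12 libraries was 7.94 for Rpl4, which lines the exit tunnel of the large subunit, 7.82 for the stalk protein gene Rplp1 and 7.80 for Rpl8. The lowest were Rpl26 at -3.22, Rpl32l at -2.97, Rpl36al at -2.84, Rpl3l at -2.47 and Rpl10l at -2.43, where -3.32 is the authors' floor for a gene without reads. In iWAT the highest mean RPKM over 6 libraries was 512 for Rpl8, then 451 for Rplp1, 297 for Rpl4 and 278 for Rps15. The lowest 5 in iWAT were Rps12l1 and Rpl10l, both at 0, then Rps3a2 at 0.0111, Rpl6l at 0.0165 and Rps3a3 at 0.0901 RPKM. Among genes that every ribosome needs, Rps16 stood at 0.538, Rps29 at 0.716 and Rps6, the target of the S6 kinases, at 0.728 RPKM in iWAT. The order was much the same in both depots (Spearman rho 0.86 across 87 genes, which are not independent replicates and share the sequence features described next).

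Reads of 51 bases often cannot tell a member from its copies. Of 86 members whose principal mRNA was cut into 51-base windows, 82 shared a window with at least 1 other annotated gene, and a member shared windows with a median of 10 other genes. The median member had 57.8% of its windows to itself, and 38 members had under 50%. Rps27 had the least, 1.36%, and Rpl3l and Rpl39l were among those with 100%. Members sharing windows with at most 4 other genes had a median of 5.34 log2 FPKM in eWAT (20 members), and those sharing with more had 3.02 (65 members). Across genes, Spearman rho between the level and the share of windows of its own was 0.27 in eWAT (85 genes) and 0.40 in iWAT (86 genes). How reads that fit several places were counted is not given in the sources used here. Low levels of Rps27 or Rps6 (15.5% of windows to itself) therefore cannot be read as little mRNA. Levels did not follow this share gene by gene. Rps16 (58.6%) and Rps29 (64.4%) stood at -1.26 and -1.57 log2 FPKM in eWAT, and Rps18 (13.5%) and Rpl35 (5.13%) at 4.56 and 3.88. Exons of other genes overlap those of Rpl15 (Nkiras1), Rpl12 (Lrsam1), Rpl10a (CT025652.2), Rpl28 (Ube2s) and Rps18 (Vps52), and reads of such pairs cannot be told apart where the strand used for counting is not given. Rpl26 had 0 to 0.0875 CPM in eWAT libraries but 1265 to 2695 normalized reads in iWAT libraries, and in the eWAT table a second entry on the same strand, Gm15772, covers 97.7% of its span and had at most 0.236 CPM. Rpl36al and Rpl32l lie wholly within the spans of Dnaaf2 and Map7 on the same strand. By the positions in that table, 14 of the 88 members were on chromosome 7 and 4 on X.

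**Figure D1:**
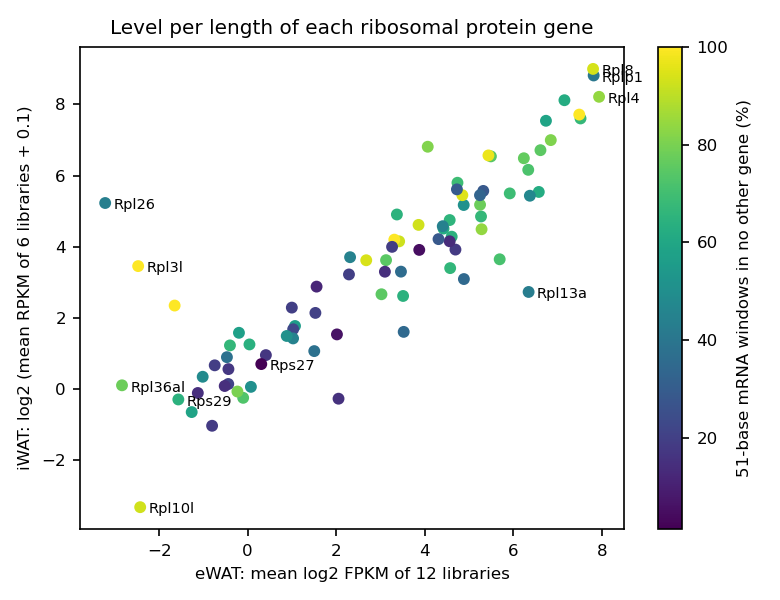
Each point is a ribosomal protein gene by its mean log2 FPKM over 12 eWAT libraries (x axis) and the log2 of its mean RPKM over 6 iWAT libraries plus 0.1 (y axis), coloured by the percent of its 51-base mRNA windows found in no other gene. Rpl4, Rpl8 and Rplp1 sit at the top in both depots, Rps27 with 1.36% of windows of its own sits low in both, and Rpl26 and Rpl13a lie away from the diagonal.

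Together the members took up a small share of all assigned reads. In eWAT the share was 0.384%, 0.322% and 0.387% in the ZT3 control libraries, 0.322%, 0.377% and 0.375% in the ZT3 shiftwork libraries and 0.326%, 0.347% and 0.384% in the ZT12 control libraries. The ZT12 shiftwork libraries had 0.507%, 0.375% and 0.359%. In iWAT it was 0.625%, 0.952% and 0.395% in the control libraries and 0.412%, 0.365% and 0.545% in the shiftwork libraries. The eWAT groups overlapped, with ZT12 shiftwork replicate 1 above the other 11 libraries, and the iWAT groups overlapped with control replicate 2 the highest. The 95% Wilson intervals reached at most 0.00355 percentage points to either side and cover counting error only, so these gaps are between libraries. In bulk tissue, fewer cells of a type and less RNA per cell cannot be told apart. Group means were 0.364% ± 0.0370, 0.358% ± 0.0312, 0.352% ± 0.0291 and 0.414% ± 0.0811 (SD, n = 3) in the order above for eWAT, and 0.657% ± 0.280 and 0.441% ± 0.0932 for iWAT.

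**Figure D2:**
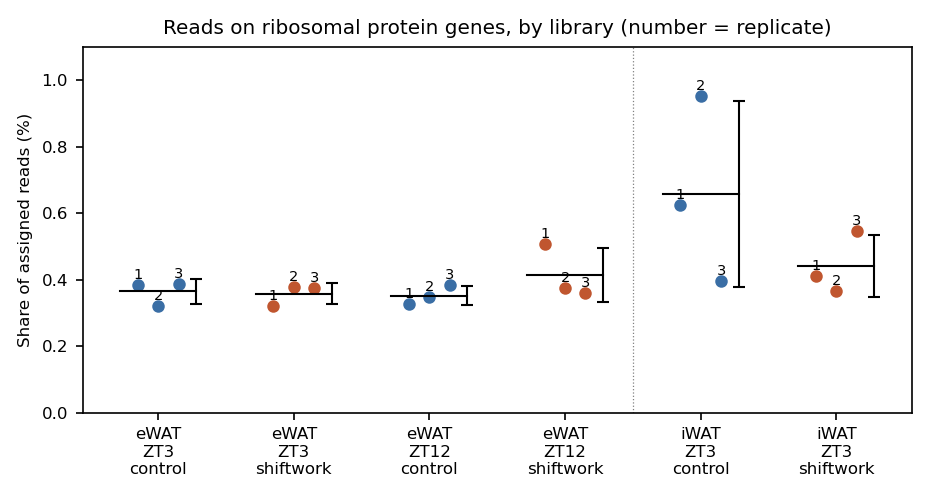
Share of assigned reads on ribosomal protein genes (y axis, percent) for each library, with the replicate number beside its point, the group mean as a line and the SD (n = 3) as a bar at its right. ZT12 shiftwork replicate 1 at 0.507% stands above the other eWAT libraries, and iWAT control replicate 2 at 0.952% stands above all.

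The abundant members moved together from library to library. The 20 members with a mean of at least 50 CPM (counts scaled to a common library size with TMM factors) over eWAT had a median correlation of 0.88 with the mean of the other 19 across 12 libraries on the log2 scale, from 0.40 for the paralog Rpl7l1 to 0.96 for Rpl8. These points share the library scaling and depend partly on 1 library: without ZT12 shiftwork replicate 1 the median was 0.71 and the lowest 0.08. The median correlation of tested non-members with the mean of the 20 was -0.03. The level of Rpl4 at ZT3 was 444, 454 and 511 CPM in control and 434, 476 and 401 in shiftwork libraries, and at ZT12 427, 460.1 and 498 in control and 596, 491 and 457 in shiftwork. For Rps3, at the mRNA entry of the small subunit, the ZT3 values were 229, 228 and 259 CPM in control and 225, 251 and 211 in shiftwork. Its ZT12 values were 227, 247 and 259 in control and 341, 259.8 and 259.6 in shiftwork. Rpl8 ranged from 228 to 336 CPM. All 3 genes were highest in ZT12 shiftwork replicate 1. The groups of Rpl4 and Rpl8 overlapped at both times, and those of Rps3 overlapped at ZT3 but not at ZT12. Relative to the mean of the abundant members in the same library, Rpl8, Rpl4 and Rps3 varied least, with an SD of 0.04 to 0.05 on the log2 scale. These 3 genes are part of that mean, so some of their closeness to it is built in. Rps27a, a ubiquitin fusion, varied most (SD 0.52, 0.243 to 2.14 CPM), then Rpl10, which completes the large subunit (SD 0.41, 2.05 to 5.03 CPM), and Rpl24 (SD 0.40, 0.178 to 0.928 CPM). Rps27a and Rpl24 were at levels where few reads were counted.

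Among non-members, the 8 genes whose log2 CPM followed the mean of the abundant members most closely over the 12 libraries were Eef1b2 (Pearson r 0.99), Ap2s1 (0.93), Eef1a1 (0.92), Ermard (0.89), Arf5, 2310036O22Rik and Rack1 (each 0.88) and Banf1 (0.87). Eef1b2 and Eef1a1 encode subunits of the elongation factor that brings tRNAs to the ribosome, and Rack1 encodes a scaffold bound to the small subunit. Without ZT12 shiftwork replicate 1 the values were 0.97 for Eef1b2, 0.76 for Ap2s1, 0.86 for Eef1a1, 0.59 for Ermard, 0.67 for Arf5, 0.95 for 2310036O22Rik, 0.63 for Rack1 and 0.87 for Banf1.

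**Figure D3:**
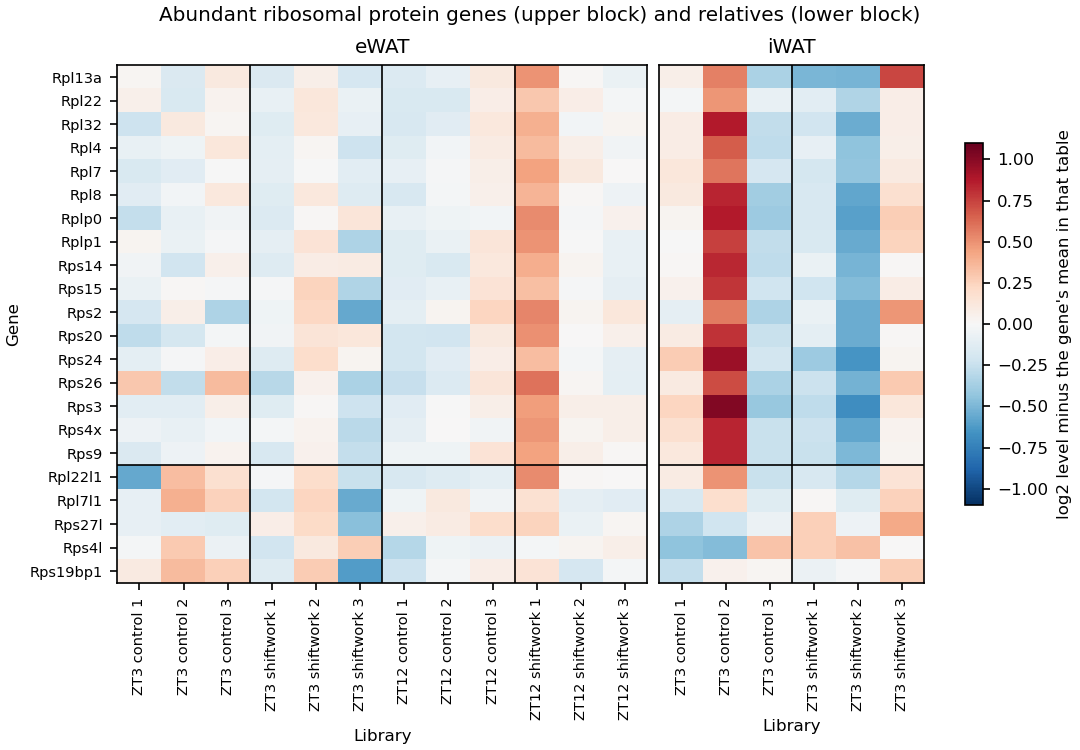
Colour gives the log2 level minus the gene's mean in that table, for genes (y axis) in the libraries (x axis) of eWAT (CPM plus 0.5) and iWAT (normalized reads plus 1), with vertical lines between groups. The upper block, a selection of the members of at least 50 CPM, is high across ZT12 shiftwork replicate 1 and iWAT control replicate 2, and the lower block holds Rpl22l1, Rpl7l1, Rps27l, Rps4l and Rps19bp1.

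Shiftwork and control eWAT at ZT3 gave no called member (0 of 77 tested, against 0% of all 15141 genes, edgeR with Benjamini-Hochberg adjusted p under 0.05). At an unadjusted p under 0.05 there were 2 of 77 members, against 2847 of all 15141 genes. DESeq2 called 0 of 77 members although it called 629 genes. Of the 77 members, 36 lay above 0 and 41 below, with a median log2 difference of -0.01 against 0.06 over all genes. Rpl12, at the base of the stalk, stood at 1.53, 2.14 and 2.98 CPM in control and 1.04, 1.36 and 1.27 in shiftwork libraries, with no overlap, a difference of -0.85 ± 0.31 (SE, n = 3 a group; edgeR adjusted p = 0.219). Rpl10a, of the stalk near the tRNA exit site, stood at 4.78, 4.97 and 7.57 against 2.56, 4.08 and 3.68 CPM, also without overlap (-0.74 ± 0.27, SE, n = 3 a group; edgeR adjusted p = 0.218). Rpl10 differed by -0.60 ± 0.28 (SE, n = 3 a group; edgeR adjusted p = 0.273), and on the higher side Rps20 differed by 0.24 ± 0.15 (SE), Rpl31 by 0.31 ± 0.24 (SE) and Rpl19 by 0.44 ± 0.46 (SE). In 7 members all 3 shiftwork libraries lay below all 3 controls and in 0 above, where 4.33% of all genes did the first and 7.64% the second. Those 7 were Rpl3, Rpl10, Rpl10a, Rpl12, Rpl24, Rpl28 and Rps25. Libraries of both groups carried transcripts of other tissues. In control replicates 1 and 3, 10 male tract markers summed to 11498 and 12096 CPM (1.99 to 49.1 elsewhere in eWAT), with 1 and 2 of them at 0. Of the 4 male tract markers tested, 3 lay below 0 in this contrast and 1 above. In shiftwork replicate 3, 13 spermatid markers summed to 6709 CPM (1.18 to 89.8 elsewhere). With these 3 libraries left out, control replicate 2 was the only ZT3 control. The median of the members was then 0.05 with 48 of 79 above 0, so the side of 0 on which it fell changed.

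At ZT12, most members were higher in shiftwork than in control eWAT by a small amount. None passed the test (0 of 77, against 0% of 15141 genes, edgeR), and DESeq2 called 0 members and 7 genes. An unadjusted p under 0.05 was found for 0 members and 355 of all genes. Of 77 members, 66 lay above 0, with a median of 0.17 against -0.0043 over all genes, and the sides were alike for the large subunit (39 of 47, median 0.17) and the small (27 of 30, median 0.17). Of the 20 abundant members, 19 lay above 0. Rps20 stood at 43, 42.8 and 53.5 CPM in control and 70.3, 49.7 and 51.6 in shiftwork libraries, overlapping only through control replicate 3 (0.30 ± 0.15, SE, n = 3 a group; edgeR adjusted p = 1). Rps4x, the X-linked member of the small subunit, stood at 48.7, 52.2 and 50.8 against 73.2, 53.3 and 54.7 CPM, without overlap (0.26 ± 0.13, SE, n = 3 a group; edgeR adjusted p = 1). Rplp0, the scaffold of the stalk, stood at 185, 189 and 191 against 281, 193 and 201 CPM, a difference of 0.26 ± 0.15 (SE), with group means of 188 ± 3.34 and 225 ± 48.1 CPM (SD). Rpl34 differed by 0.27 ± 0.14 (SE), and on the lower side the differences of Rpl10a, Rpl9 and Rps7 were -0.26 ± 0.27 (SE), -0.18 ± 0.34 (SE) and -0.17 ± 0.35 (SE). In 10 members all shiftwork libraries lay above all controls, among them Rps3, Rps6, Rpl21 and Rplp0, and in 1, Rpl10a, below, where 5.91% and 6.55% of all genes did so.

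The size of this difference rests on 1 library. Without ZT12 shiftwork replicate 1 the median of the members was 0.03 with 54 of 79 above 0 (all genes -0.02), and the difference of Rps20 was 0.13, of Rps4x 0.09 and of Rplp0 0.07. In that library the summed level of 10 macrophage markers was 3083 CPM, against 1613 and 1496 in the other ZT12 shiftwork libraries and 1995, 2341 and 1305 in the ZT12 controls, and none of the markers was at 0. Spermatid markers summed to 89.8 CPM there, against 1.18 and 19.6 in the other shiftwork libraries and 3.21 to 30.1 in the controls. Between schedules at ZT12, 6 of the 10 macrophage markers lay above 0 (median 0.06). So did 9 of 10 B and plasma cell (median 1.32), 7 of 8 mast cell and all 8 smooth muscle markers (median 1.43). All 5 tested intestine markers did too (median 1.998), with 1 called by DESeq2 and 0 by edgeR. Of 8 adipocyte markers 7 lay below 0, and of 7 T cell markers 5. Intestine markers summed to 460 CPM in shiftwork replicate 2 and to 8.16 to 69.3 in the other eWAT libraries. The part of these cells and tissues in the result was not tested.

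In control eWAT, ZT12 against ZT3 gave 559 called genes of 15141 (3.69%, with 2.93% higher and 0.766% lower), and 0 of the 77 members were among them (edgeR). An unadjusted p under 0.05 was found for 3 members and 3393 of all genes. The number of called genes depended on single libraries: it was 1 without ZT12 control replicate 1, 3 without ZT3 control replicate 3, 4 without ZT12 control replicate 2 and 2744 without ZT3 shiftwork replicate 3. DESeq2 called 2168 genes and 1 member, Rpl15, a large-subunit protein. Members lay on both sides, 34 above 0 and 43 below, with a median of -0.03 against -0.01 over all genes. Rpl15 stood at 22.4, 22.7 and 27.1 CPM at ZT3 and 17.2, 19 and 15.4 at ZT12, without overlap, a difference of -0.49 ± 0.18 (SE, n = 3 a group; edgeR adjusted p = 0.141). Under DESeq2 it was -0.52 ± 0.18 (adjusted p = 0.0373). In edgeR without ZT3 shiftwork replicate 3, a library outside this contrast that enters the shared estimate of spread, it was -0.51 ± 0.10 (adjusted p = 0.0155). Rpl24 differed by -1.05 ± 0.44 (SE) and Rpl10 by -0.63 ± 0.28 (SE), from 4.50 ± 0.865 to 2.91 ± 0.804 CPM (SD, n = 3). On the other side were Rps27l at 0.23 ± 0.16 (SE), Rpl27a at 0.25 ± 0.23 (SE) and Rps3a1 at 0.18 ± 0.17 (SE). In 9 members all ZT12 libraries lay below all ZT3 libraries and in 1, Rps27l, above, where 13.6% and 19.3% of all genes did so. The abundant members were nearly level, 12 of 20 above 0 with a median of 0.01. Rpl4, for example, had 469 ± 35.9 CPM at ZT3 and 462 ± 35.6 at ZT12 (SD, n = 3).

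Under shiftwork, the same contrast of times put 64 of 77 members above 0, with a median of 0.16 against -0.03 over all genes. No member was called (0 of 77, against 0% of all genes, edgeR), and DESeq2 called 0 members and 287 genes. The unadjusted p was under 0.05 in 6 members and in 2461 of all 15141 genes. All 20 abundant members lay above 0. Rpl39, a small protein of the exit tunnel, stood at 20.5, 22.6 and 17.3 CPM at ZT3 and 33.7, 22.1 and 24 at ZT12, overlapping through ZT3 replicate 2 (0.40 ± 0.17, SE, n = 3 a group; edgeR adjusted p = 0.288). Rps3 differed by 0.33 ± 0.13 (SE, n = 3 a group; edgeR adjusted p = 0.288) and Rpl7, a large-subunit protein, by 0.27 ± 0.12 (SE, n = 3 a group; edgeR adjusted p = 0.296), from 96.8, 104 and 96.2 to 141, 112 and 104 CPM. On the lower side were Rpl24 at -0.62 ± 0.45 (SE), Rps27a at -0.82 ± 0.71 (SE) and Rps13 at -0.22 ± 0.40 (SE). Rpl3, Rpl7 and Rps3 had all ZT12 libraries above all ZT3 libraries (3 of 77, where 9.05% of all genes did) and 0 had them below (7.59% of all genes). Here too the same library carried most of the difference: without ZT12 shiftwork replicate 1 the median was 0.03 with 53 of 79 above 0, and Rps3 differed by 0.18. All 13 spermatid markers lay below 0 in this contrast, with ZT3 shiftwork replicate 3 the highest. All 10 macrophage markers lay above 0, on the side of most members (median 1.05, 9 at an unadjusted p under 0.05). edgeR called 0 of them and DESeq2 called 3 higher. Their sums were 1193, 718 and 998 CPM at ZT3 and 3083, 1613 and 1496 at ZT12, without overlap, and their part in the result was not tested. Without ZT3 shiftwork replicate 3, ZT3 control replicate 1 and ZT3 control replicate 3 the median was 0.10 with 61 of 79 above 0.

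The interaction asks whether the difference between times depended on the schedule. The median of the members was 0.22 against -0.07 over all genes, with 67 of 77 above 0. None was called (0 of 77, against 0% of all genes, edgeR), and DESeq2 called 0 members and 189 genes. An unadjusted p under 0.05 was found for 0 members and 1535 of all 15141 genes. The members with the smallest p were Rpl27 (1.20 ± 0.60, SE, n = 3 a group; edgeR adjusted p = 0.513), Rpl3, which sits at the peptidyl transferase centre (0.35 ± 0.17, SE), and Rps26, at the mRNA exit (0.63 ± 0.32, SE). Rps26 stood at 70.5, 47.5 and 72.9 CPM in ZT3 control, 46.3, 59.1 and 45 in ZT3 shiftwork, 48, 51.6 and 62.8 in ZT12 control and 87, 58.2 and 53.3 in ZT12 shiftwork libraries. It was high in the ZT3 controls that carried male tract transcripts and in ZT12 shiftwork replicate 1, and their part in its level was not tested. On the lower side were Rps27a at -0.78, Rpl19 at -0.43 and Rps27l at -0.13. Without ZT12 shiftwork replicate 1 the median was 0.07 with 51 of 79 above 0. Without ZT3 control replicates 1 and 3 and ZT3 shiftwork replicate 3 it was 0.14 with 61 of 79 above 0. That setting keeps replicate 2 as the only ZT3 control. The comparisons within eWAT share libraries, so their medians are set side by side and are not independent of each other.

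In iWAT at ZT3 most members were lower in shiftwork than in control libraries. None was called (0 of 86 tested, against 0% of 16387 genes, limma, and 0 by edgeR on recovered reads). By limma 0 members had an unadjusted p under 0.05, against 1094 of all genes. Of 86 members 75 lay below 0, with a median of -0.36 against 0.02 over all genes, in both subunits (43 of 51 large, median -0.32, and 32 of 35 small, median -0.41). The authors' deposited table of this comparison gave 77 of 90 members below 0, a median of -0.36 and 0 members with an adjusted p under 0.05, where 426 genes had one. Rps24 stood at 3421, 5416 and 2450.2 normalized reads in control and 2134, 1802 and 2886 in shiftwork libraries, overlapping through control replicate 3 (-0.68 ± 0.33, SE, n = 3 a group; limma adjusted p = 0.688). Rps19, a gene mutated in Diamond-Blackfan anaemia, stood at 3009, 4522 and 2837 against 2360.4, 2234 and 2747, without overlap (-0.47 ± 0.22, SE, n = 3 a group; limma adjusted p = 0.688). Rpl30 differed by -0.57 ± 0.29 (SE), Rplp0 by -0.33 ± 0.38 (SE) and Rps4x by -0.51 ± 0.31 (SE). In 2 members, Rps19 and Rpl37rt, all shiftwork libraries lay below all controls and in 1, Rps27l, above, where 5.59% and 7.34% of all genes did so.

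This difference also depended on single libraries. Rpl4 stood at 19890.3, 29664 and 15459.6 normalized reads in control and 17579, 13816 and 19586 in shiftwork libraries, with control replicate 2 highest and control replicate 3 among the shiftwork values. Without control replicate 2 the median of the members was -0.08 with 26 of 85 above 0. Without control replicate 3 it was -0.60, with 8 of 86 above 0. There 19 of 86 members had an unadjusted p under 0.05, as did 2825 of all 16092 genes. In that fit limma called 360 genes and 0 members. Lymphocyte markers were highest in control replicates 1 and 2: 10 B and plasma cell markers summed to 35415, 57248 and 747 normalized reads in the controls and 1030.0, 1666 and 166 in the shiftwork libraries, and 8 T cell markers to 12201, 22876 and 636 against 1064, 1002 and 831, with none of these markers at 0. Relative to each member's mean over the iWAT libraries, the members' median log2 level was 0.12, 0.72 and -0.28 in controls and -0.21, -0.46 and 0.15 in shiftwork. Macrophage markers summed to 49737, 65371 and 55651 against 77111, 37002 and 121254, with 9 of 10 above 0. Adipocyte markers summed to 571661, 401732 and 923004 against 723508, 1003220 and 645679. Skeletal muscle markers were highest in shiftwork replicate 1. The part of these tissues in the iWAT result was not tested.

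**Figure D4:**
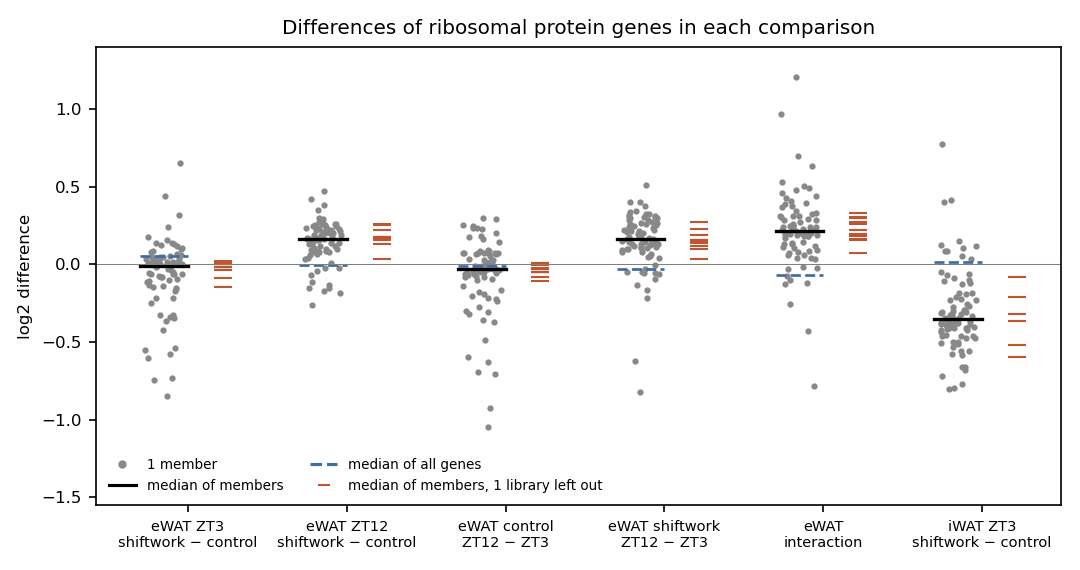
Each grey point is the log2 difference (y axis) of a tested ribosomal protein gene in a comparison (x axis), with the median of the members as a black line, the median of all genes as a dashed blue line and, at the right, an orange dash for the members' median with each library left out in turn. The members' medians are 0.17 for shiftwork against control at ZT12 and -0.36 in iWAT, and leaving out 1 library takes them to 0.03 and -0.08.

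Some paralogs did not follow the abundant members in every comparison. Rps27l, a p53 target and paralog of Rps27, stood at 761, 827 and 919.7 normalized reads in iWAT control and 1152, 925 and 1282 in shiftwork libraries, without overlap and against the direction of most members (0.41 ± 0.18, SE, n = 3 a group; limma adjusted p = 0.688). Rps27 itself stood at 56.4, 70.1 and 36.9 against 42.4, 46.1 and 57.7 normalized reads. Rps4l, a paralog of Rps4x, stood at 787, 766 and 1330.0 against 1283, 1338 and 1073 (0.40 ± 0.25, SE, n = 3 a group; limma adjusted p = 0.693), overlapping through control replicate 3. In eWAT at ZT12 the schedule difference was -0.05 for Rps27l, 0.16 for Rps4l and -0.03 for Rpl7l1. Rpl22l1, a paralog of Rpl22, differed there by 0.35 ± 0.24 (SE) and Rpl22 by 0.20 ± 0.12 (SE). Rps19bp1, which is no subunit, differed by 0.04 in eWAT at ZT12 and 0.13 in iWAT.

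In eWAT the tissue-restricted paralogs were near the detection limit in most libraries and highest in those with the highest summed markers of other tissues. Rpl10l had 679 reads (29.7 CPM) in eWAT ZT3 shiftwork replicate 3, at most 0.285 CPM in the other eWAT libraries and 0 reads in all 6 iWAT libraries, where 3 reads equal 0.0539 to 0.105 CPM. Rpl39l had 1194 reads (52.3 CPM) in the same eWAT library, 1.16 CPM in ZT12 shiftwork replicate 1 and at most 0.475 CPM in the others. These libraries also had the highest sums of spermatid markers, 6709 and 89.8 CPM. In iWAT, Rpl39l stood at 37.8, 106 and 104 normalized reads in control and 431, 31.1 and 157 in shiftwork libraries, while spermatid markers there summed to only 9.23 to 29.8. The highest of these Rpl39l values, in shiftwork replicate 1, stood beside a spermatid sum of 18.7, so for Rpl39l the pattern of eWAT was not seen in iWAT. Rpl3l, the muscle form of the gene for the peptidyl transferase centre protein, stood at 7.77, 9.56 and 4.61 normalized reads in iWAT control and 3873, 65.7 and 5.88 in shiftwork libraries. In the same iWAT libraries 11 skeletal muscle markers, none at 0, summed to 4063, 2039 and 2406 in controls and to 2235130.0, 30253 and 5937 in shiftwork. In eWAT, Rpl3l stood at 1.45, 0.0974 and 1.42 CPM in the ZT3 controls and at most 0.095 CPM elsewhere. Skeletal muscle markers summed to 245, 26.2 and 193 CPM in those controls and to 10.4 to 17.9 elsewhere. Up to 3 of the 11 markers were at 0 in a library. Of the 6 tested in eWAT, 3 lay below 0 and 3 above at ZT12 against ZT3 in controls. The sum therefore does not stand for every marker of the list. The part of these tissues in the levels was not tested. Rpl3l, Rpl10l and Rpl39l did not pass the low-count filter in eWAT. With ZT3 control replicate 2 or ZT3 shiftwork replicate 3 left out, Rpl3l passed it, but only through the 2 ZT3 controls where it was high, so its difference from other groups was fixed by the filter and is not read as a result. The ubiquitous Rpl3 stood at 21.8, 21.9 and 26.7 CPM in the ZT3 controls and 20.3, 21.4 and 18.7 in ZT3 shiftwork.

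**Figure D5:**
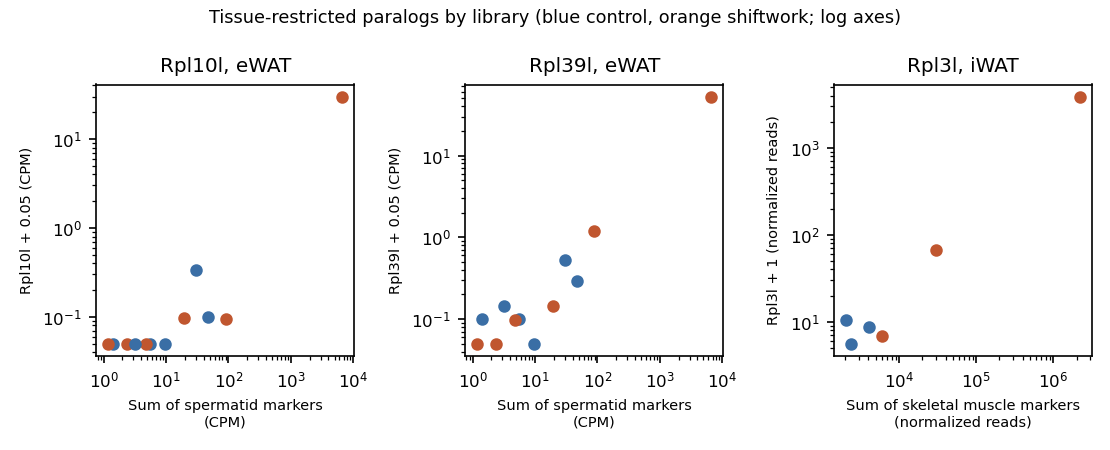
Level of Rpl10l and Rpl39l in 12 eWAT libraries (CPM plus 0.05) against the sum of spermatid markers, and of Rpl3l in 6 iWAT libraries (normalized reads plus 1) against the sum of skeletal muscle markers, all on log axes, with control libraries in blue and shiftwork in orange. A single shiftwork library in each panel holds the highest value of both axes: 29.7 CPM of Rpl10l, 52.3 CPM of Rpl39l and 3873 normalized reads of Rpl3l.

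Several members have roles outside the ribosome, and none of those named here was called. Rpl5 and Rpl11, which with 5S rRNA bind the p53 regulator MDM2, differed between schedules by 0.01 and -0.15 at ZT3, 0.26 and 0.10 at ZT12 and -0.10 and -0.27 in iWAT. Rpl13a, which also silences inflammatory mRNAs, stood at 184, 162 and 195 CPM in ZT3 control, 162, 190.1 and 159 in ZT3 shiftwork, 163, 171 and 195 in ZT12 control and 256, 183 and 173 in ZT12 shiftwork libraries. In iWAT it stood at 440.1, 622 and 332 and 298, 296 and 703 normalized reads, highest in shiftwork replicate 3. Rpsa, which is also known as the laminin receptor, differed by 0.12 ± 0.31 (SE) at ZT12 and -0.38 ± 0.45 (SE) in iWAT. The stalk genes Rplp1 and Rplp2 differed by 0.18 ± 0.17 (SE) and 0.12 ± 0.21 (SE) at ZT12. Rpl36a and Rpl36al, a gene and its retrogene, had at most 0.380 and 0.263 CPM in eWAT and were not tested there. Members not tested in eWAT also included Rpl26, Rpl32l, Rps16, Rps23 and Rps29, and those not tested in iWAT were Rpl6l, Rpl10l, Rpl3l, Rps12l1, Rps3a2 and Rps3a3.

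Other genes of ribosome production and translation were read in the same fits. Of 46 ribosome biogenesis genes, which process rRNA and assemble subunits, 41 lay below 0 at ZT12 against ZT3 in control eWAT (median -0.19) and 36 in shiftwork against control at ZT3 (median -0.20). edgeR called 0 in both, and DESeq2 called 1 higher and 2 lower in the first and 2 lower in the second. The unadjusted p of edgeR was under 0.05 in 5 and 8 of the 46, against 3393 and 2847 of all 15141 genes. Both contrasts are set against the ZT3 controls, of which replicates 1 and 3 carried male tract transcripts, and 8 smooth muscle markers summed there to 10455 and 7892 CPM (341 to 974 in the other eWAT libraries). In the control time contrast edgeR called 4 of the 8 smooth muscle markers lower, and DESeq2 called 7. All 10 B and plasma cell markers lay below 0 (median -2.52), with 0 called by edgeR and 9 by DESeq2. All 10 macrophage markers lay above 0 there (median 1.29), with 3 called higher by edgeR and 9 by DESeq2. The part of these cells in the lists was not tested. The gene with the smallest p was Sbds in the first (0.43 ± 0.14, SE, n = 3 a group; edgeR adjusted p = 0.105), which releases a factor that blocks subunit joining, and Bysl in the second (-0.57 ± 0.16, SE, n = 3 a group; edgeR adjusted p = 0.198). At ZT12, where most members lay above 0 between schedules, 18 biogenesis genes lay above 0 and 28 below (median -0.03). Of 13 snoRNA host genes, many of which are TOP RNAs, 12 lay below 0 in the control time contrast and 1 fell past the test: Snhg5, by 0.81 ± 0.18 (SE, n = 3 a group; edgeR adjusted p = 0.0394). DESeq2 called 3 of the 13 lower. Of 25 genes of the mTOR axis and regulators of TOP mRNAs, 1 fell in that contrast: Tia1, a repressor of TOP mRNA translation, by 0.48 ± 0.11 (SE, n = 3 a group; edgeR adjusted p = 0.0462). DESeq2 called 1 of the 25 higher and 3 lower. Calls of 1 gene in a list stand against 3.69% of all genes called in either direction and 0.766% called lower. The calls of Snhg5 and Tia1 were lost without ZT12 control replicate 1, without ZT12 control replicate 2 or without ZT3 control replicate 3. In those fits edgeR called 0 genes lower in this contrast.

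Of 24 translation factors and other TOP mRNAs, 17 lay above 0 between schedules at ZT12 (median 0.11) and 19 below 0 in iWAT (median -0.20). None was called in either, by edgeR or DESeq2 at ZT12 or by limma or edgeR in iWAT, and 0 had an unadjusted p under 0.05. Fau, whose product includes the small-subunit protein eS30, differed by -1.28 ± 0.42 (SE, n = 3 a group; edgeR adjusted p = 0.215) between schedules at ZT3. Of 76 mitochondrial ribosomal protein genes, which serve a separate ribosome, 59 lay below 0 between schedules at ZT3, 52 above at ZT12 and 60 below at ZT12 against ZT3 in controls. edgeR called 0 in each, and DESeq2 called 0, 0 and 1. The unadjusted p of edgeR was under 0.05 in 1, 0 and 4 of the 76, against 2847, 355 and 3393 of all 15141 genes. In iWAT 56 of 77 lay above 0 (median 0.08), on the other side from the cytosolic members, and all 12 snoRNA host genes tested lay below 0 (median -0.48). limma and edgeR called 0 in both lists, with 1 and 0 at an unadjusted p under 0.05 by limma. For all of these lists the background is the share of all genes called given above for each comparison, and no difference between a list and other genes was tested.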

How the data were processed

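Messenger RNA libraries of 18 fat samples were read as single reads of 51 cycles, per the labels' protocols. For eWAT the authors deposited whole-number read counts per gene symbol and log2 FPKM with a floor of -3.32. The deposited iWAT table named read counts holds a normalized signal: each value is a whole multiple of 1 step per library, as left by a size factor, and dividing by that step gave whole reads for 100% of 310956 values (largest deviation 2.79e-09). The authors also deposited RPKM for iWAT, per the file headers, and their own comparison as log2 fold change and p-value. STAR, HTSeq, DESeq2, edgeR and limma, with mm10 and GRCm38 as builds, are listed per the submitters' processing notes; versions, strand and the treatment of reads that fit several places are not given in the sources used here.

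The counts of eWAT entered edgeR 4.0.16 under R 4.3.3 (robust quasi-likelihood, TMM, filterByExpr with a minimum count of 10 and total of 15, all 12 libraries and 4 groups; SE is the log2 difference over the square root of F). Because iWAT values are not counts, limma 3.58.1 (trend, robust) was run on log2(value + 1) for identifiers with at least 10 in at least 3 libraries, so differences of low genes are understated. Calls are Benjamini-Hochberg adjusted p under 0.05 over all genes. DESeq2 1.42.0, other scalings, filters and pseudocounts, edgeR on recovered iWAT reads, a replicate block and leaving out libraries were alternatives. Fits were tested on simulated counts. No 2 libraries of a group were copies (smallest chi-square per gene 19.2 over 18 pairs).

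Named genes are those called or else the 3 smallest p in each direction per comparison, a list with known roles, the 5 highest and lowest levels, the 8 non-members most like the abundant members, the 3 members varying most and least relative to them, and the gene of smallest p in each other list; a few more are named to spell out counts, after their values were seen, and some genes that this rule names are not reported here. Members, lists and tests were chosen with earlier results of these data known. The windows of 51 bases come from principal transcripts of GENCODE vM21, and promoter windows from RefSeq.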

Additional observations from a re-analysis of the deposited data

How the results depend on the processing

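No member was called in eWAT or iWAT under the main settings, and few were under others. With 1 library left out in turn, members called ranged from 0 to 1 for shiftwork against control at ZT3 and from 0 to 2 for ZT12 against ZT3 in controls (Rpl3l and Rpl15), and DESeq2 called 1 (Rpl15) in the latter. The Rpl3l calls are not results: the gene passed the low-count filter only through the ZT3 controls where it was high. The members' median with 1 library left out ranged from -0.15 to 0.02 for shiftwork against control at ZT3, from 0.03 to 0.26 at ZT12, from -0.11 to 0.01 and from 0.03 to 0.27 for ZT12 against ZT3 in control and shiftwork mice, from 0.070 (without ZT12 shiftwork replicate 1) to 0.33 for the interaction and from -0.60 to -0.08 in iWAT. The medians near 0 (schedule at ZT3, time in controls) changed sign under some settings. The deposited RPKM gave -0.49 in iWAT, but moved the median of all genes from 0.02 to -0.12, so the gap between members and all genes changed little. Between libraries of a group the members' median had a pooled SD of 0.146 in eWAT and 0.416 in iWAT (log2).

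The labels number the replicates 1 to 3 in every group. Same-numbered libraries did not deviate together (r from -0.31 to 0.24 over 18 pairs in eWAT and from -0.17 to 0.03 over 3 pairs in iWAT), so the numbers were not taken as pairs. With a replicate block the medians were -0.02, 0.17, -0.02, 0.17, 0.21 and -0.36 in the order above, with 0 members called in each; 298 genes were called for time in controls, against 559 without the block and 470 with DESeq2 size factors in edgeR, 320 without a filter and 753 with the 2 groups alone. With 1 library left out this count ranged from 1 (without ZT12 control replicate 1) to 2744 (without ZT3 shiftwork replicate 3).

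Many members share 51-base sequences with other genes, how such reads were counted is not known, and its part in the levels was not tested; 3 libraries a group limit what the tests can call.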
